A study of Mus musculus with 6 samples.

Results

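The nuclear hormone receptors were examined in C2C12 cells, an established line of mouse myoblasts whose cells leave the cell cycle and fuse into multinucleated myotubes when serum is reduced. The receptors were taken by gene symbol, and all 46 symbols were among the 54525 genes listed. RNA-seq had been performed on 3 cultures of proliferating myoblasts (day 0, D0) and 3 cultures of myotubes after 5 days of differentiation (D5). All cultures were wild type and untreated apart from the culture medium, and the labels give no difference between them but the day of differentiation. By the paper's methods, growth medium held fetal bovine serum and differentiation medium a lower share of horse serum. The day and the serum, a source of receptor ligands, therefore changed together and cannot be told apart. All 6 cultures come from the same line, and nothing in the sources says how far apart the 3 cultures of a day were grown, so p-values measure the spread between these cultures, which may be technical.

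Nuclear receptors are transcription factors with a zinc-finger DNA-binding domain and, in nearly all members, a pocket that takes up a small lipophilic ligand. Steroid receptors wait with chaperones and bind DNA as pairs of the same receptor once hormone arrives, whereas the thyroid hormone, retinoic acid and vitamin D receptors, the PPARs and the LXRs sit on DNA as pairs with a retinoid X receptor and exchange corepressors for coactivators when their ligand binds. One of those coactivators is Mediator, which many receptors contact through its subunit MED1. In skeletal muscle, glucocorticoid, thyroid hormone, retinoid, PPAR and estrogen-related receptors are known for their part in protein breakdown, fiber type, differentiation and mitochondrial metabolism. The values given here are of RNA, not of receptor protein, ligand or activity.

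Gene counts summed to between 36555048 and 40895840 in the libraries of D0 and to between 25449759 and 25811300 in those of D5, so the D0 libraries were deeper and raw counts are not comparable between days without scaling. CPM (a gene's counts relative to the library size, which edgeR's TMM factors adjust) are used to compare days. TPM (counts divided by exonic length, relative to the library's own total of such values) are used to compare genes and do not carry the TMM factors, so a sum in TPM is a share of all gene RNA and not an amount per cell. The cultures fitted their labels. The summed level of the myoblast markers *Myod1*, *Myf5* and *Pax7* was from 339 to 356 CPM in the D0 libraries and from 154 to 160 CPM in the D5 libraries. The summed level of the 5 myotube markers *Myog*, *Mymk*, *Myh3*, *Ckm* and *Acta1* was from 26.3 to 33.5 CPM at D0 and from 9820 to 10500 CPM at D5. Of markers of other cells, none of 6 for adipocytes and none of 4 for hepatocytes was detected, and *Cidec*, *Lep*, *Cfd*, *Alb*, *Ttr*, *Serpina1a*, *Ibsp*, *Tie1* and *Adgre1* had 0 counts in every library. Of 4 fibroblast markers, 3 (*Pdgfra*, *Dpt* and *Pi16*) were detected and all 3 rose, with a summed level from 1.15 to 1.5 CPM at D0 and from 43.7 to 52.7 CPM at D5. Of the other lists, 1 of 4 osteoblast, 2 of 4 endothelial and 1 of 4 macrophage markers were detected, with summed levels of at most 1.01, 1.04 and 3.39 CPM in any library. The part of these markers in the receptor results was not tested. In bulk cultures, fewer cells of a type and less RNA per cell cannot be told apart.

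Expression of the receptor superfamily was broad on both days. With TMM factors it shifted upward at D5, a shift that depended on the scaling of the libraries. A receptor was called detected when all 3 libraries of at least 1 group held more than 3 counts. By this limit 31 of the 46 receptors were detected, 26 on both days, 5 at D5 only and 0 at D0 only. Of 54525 genes listed, 18267 to 18643 held more than 3 counts in a D0 library and 18020 to 18066 in a D5 library. How all genes divide between the days by this limit was not counted. The 5 receptors over the limit at D5 only were *Esrrb*, *Nr1h3*, *Nr3c2*, *Ppara* and *Rarb*. The 15 receptors that were not detected included 6 with 0 counts in every library, namely *Hnf4g*, *Nr0b1*, *Nr0b2*, *Nr2e3*, *Nr5a2* and *Pgr*. The other 9 had between 1 and 7 counts in their highest library, with *Nr5a1* at 7, *Nr1i3* at 5, *Nr1i2* at 3, *Esr2*, *Nr2e1* and *Rxrg* at 2 and *Hnf4a*, *Nr1h4* and *Thrb* at 1. At this depth a level under 3 counts in a library cannot be told from absence, and this limit covers counting error only.

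edgeR's filter on low counts left 30 of the 46 receptors among the 16290 genes tested, and *Esrrb* was the detected receptor it removed. At a threshold of 0.05 on the adjusted p of the quasi-likelihood test in edgeR, 21 receptors were higher at D5, which is 70.0% of those tested, and 42.2% of all genes tested were higher by the same rule. Lower at D5 were 8 receptors, or 26.7%, against 40.8% of all genes tested. The call was missing for *Nr2f6* alone, and 82.9% of all genes tested were called in either direction. Every D5 library lay above every D0 library for the same 21 receptors and below for the same 8, positions held by 42.2% and 41.1% of all genes tested. The median log2 fold change was 0.61 for the receptors tested and 0.00 for all genes tested, and 0.396 for the receptors with at least 10 counts in every library.

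A receptor that passes the filter only because it is high at D5 has to differ, and 5 of the receptors tested (*Esrrg*, *Nr1h3*, *Nr3c2*, *Ppara* and *Rarb*) did not reach 10 counts in every library. Without them, in a fit limited to genes with at least 10 counts in every library, 16 of 25 receptors were higher and 8 lower, with 41.9% of the 13713 genes higher and 41.9% lower. The scaling mattered more. ERCC spike-ins, synthetic RNAs listed beside the genes, took 0.859%, 0.828% and 0.726% of the counts in the D0 libraries but 1.20%, 0.720% and 2.09% in the D5 libraries, and the amount added to each sample is not given in the sources used here. When libraries were scaled to them, the median of all genes tested moved to -0.58. Calls then remained for 7 higher receptors (*Esr1*, *Esrrg*, *Nr1h3*, *Nr3c2*, *Nr4a3*, *Ppara* and *Rarb*) and 2 lower (*Pparg* and *Nr4a2*), and the other called receptors lost theirs. Of these 7, only *Esr1* and *Nr4a3* reached 10 counts in every library, and the other 5 are those named above. Of all 16290 genes tested, 1813 were higher and 3747 lower on that scale. All 8 fallers had larger falls on that scale, 7 of them in every library, but the standard errors were near 0.52, as for *Nr2c2* (log2 fold change -1.01, SE 0.521) and *Vdr* (-0.93, SE 0.524). In unscaled counts the median of all genes was -0.68, with 13 receptors higher and 14 lower, beside 3353 and 10953 of all genes tested. A scaling moves all genes of a library alike, so the distance of the receptors' median from that of all genes, 0.61 on the log2 scale, does not test it. That distance was 0.40 with at least 10 counts in every library and 0.79 without a filter.

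**Figure D1:**
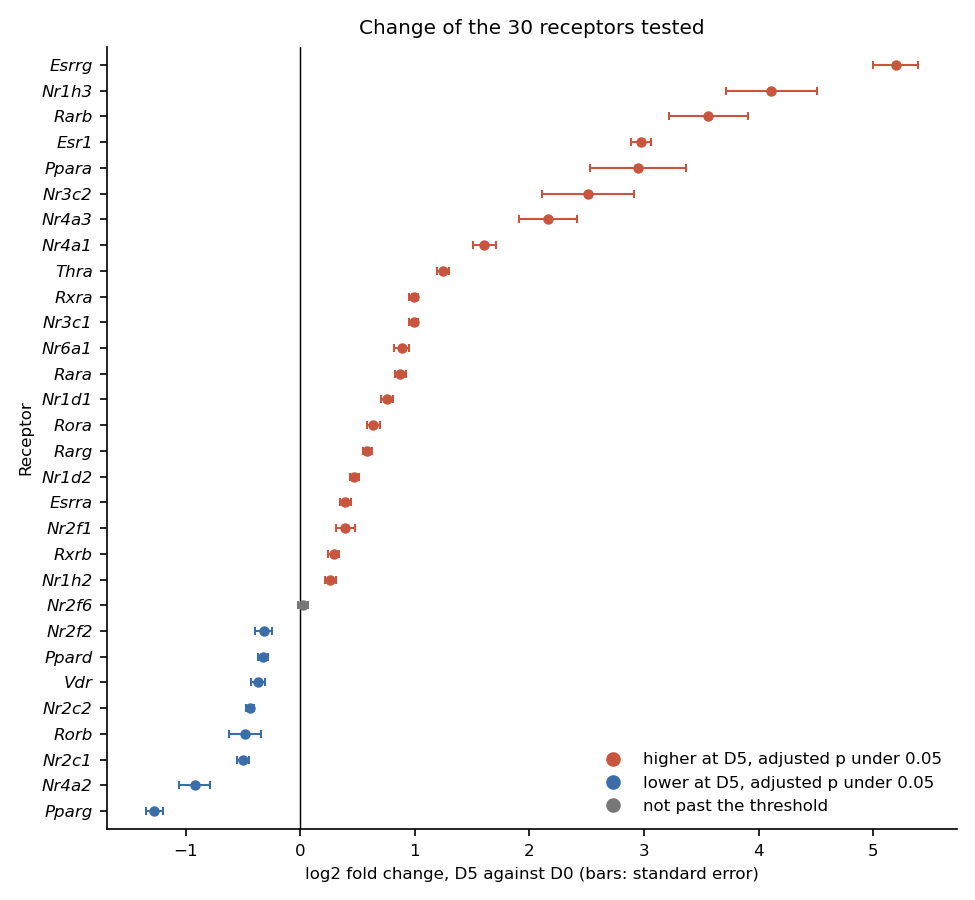
The log2 fold change of each of the 30 receptors tested, D5 against D0, with its standard error as a horizontal bar and a color for the call. The values run from -1.27 for *Pparg* to 5.20 for *Esrrg*, 21 receptors lie to the right past the threshold, and the sign of *Nr1h2*, *Rxrb*, *Nr2f1*, *Esrra*, *Nr1d2*, *Rarg* and *Nr2f6* turns with spike-in scaling and in unscaled counts, where that of *Rora* turns too.

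Among the receptors that pair with retinoid X receptors, *Thra*, which encodes thyroid hormone receptor alpha (chr11:98740638-98769006, plus strand, GRCm38), had 25.9, 23.6 and 27.7 CPM in the D0 libraries and 61.2, 58.2 and 63.7 CPM in the D5 libraries. All D5 libraries were far above all D0 libraries, with a small spread within each day. The log2 fold change was 1.25 (standard error, SE, 0.051, adjusted p = 7.5e-20 in edgeR's test), and it ranged from 1.17 to 1.29 when each library was left out in turn. With spike-in scaling it was 0.65 (SE 0.52, adjusted p = 0.34 in edgeR's test) and no longer called. In TPM, *Thra* moved from rank 15 among the receptors at D0 to rank 6 at D5. *Thrb*, the gene of the beta receptor, had 1 count in 1 D5 library and 0 elsewhere, so the thyroid hormone receptor RNA of these cells was that of *Thra*. *Thra* shares 263 bases, 5.70% of its exonic length, with *Nr1d1* on the opposite strand, and the strand setting of the counting is not given in the sources used here.

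All 3 retinoic acid receptors rose with TMM factors. With spike-in scaling the log2 fold change was 0.29 for *Rara* (SE 0.518) and -0.01 for *Rarg* (SE 0.516), neither called, and in unscaled counts that of *Rarg* was -0.09. *Rara* (chr11:98927818-98974942) had 29.7, 30.8 and 32.8 CPM at D0 against 56.2, 55.5 and 59.5 CPM at D5, with no overlap between days. Its log2 fold change was 0.88 (SE 0.046, adjusted p = 4.6e-17 in edgeR's test). *Rarg*, the most abundant of the 46 receptors at D5 in TPM, had 69.9, 66.7 and 70.2 CPM at D0 against 103, 98.4 and 110 CPM at D5. The groups were again apart, and the log2 fold change was 0.59 (SE 0.040, adjusted p = 2.4e-14 in edgeR's test). *Rarb* was at the limit of detection in myoblasts, with 2, 8 and 7 counts at D0, and had 34, 59 and 35 counts at D5. From 17 counts in sum at D0 and 128 at D5, scaled for depth, the ratio was 12.1, with an interval from 7.26 to 21.4 (95%, exact, counting error only), and the log2 fold change was 3.56 (SE 0.35, adjusted p = 9.1e-11 in edgeR's test). Of the exonic length of *Rarb*, 34.1% is shared with *Top2b* on the opposite strand. *Top2b*, a DNA topoisomerase, had from 10591 to 11766 counts at D0 and from 4081 to 4401 at D5 and fell (log2 fold change -0.72), the other way from *Rarb*.

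*Rarb* is known as a gene that its own protein family induces, through a pair of receptor half-sites spaced by 5 bases (a DR5 element) just before an annotated start. The element is shown because *Rarb* was the single receptor with a match to it. The motif was searched by that name on both strands in RefSeq's windows of 300 bases around gene starts (250 before and 50 after, GRCm38.p6), and 32 of 32851 windows, or 0.0974%, held it. In all, 63 windows of 42 receptors were searched for 16 motifs, and the motifs and genes shown here were chosen after the matches were seen. The stretch from 59 to 31 bases before the start that RefSeq's window gives for *Rarb*, which lies inside the annotated span of the gene, is given from 5′ to 3′ on the minus strand (chr14:16575507-16575535), with the element in capitals.
Rarb: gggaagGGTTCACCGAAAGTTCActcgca

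The retinoid X receptors are the shared partners of this group. *Rxra* (chr2:27676440-27762957) had 39.5, 39.6 and 39.9 CPM at D0 against 78.8, 76.7 and 81.1 CPM at D5. With TMM factors the days were far apart and the D0 libraries nearly equal, and the log2 fold change was 0.99 (SE 0.040, adjusted p = 3.8e-20 in edgeR's test). With spike-in scaling that of *Rxra* was 0.41 (SE 0.518) and no longer called. *Rxrb* changed less, from 36.7, 34.4 and 33.5 CPM to 43.9, 40.9 and 43.2 CPM, a log2 fold change of 0.29 (SE 0.047, adjusted p = 1.7e-06 in edgeR's test) that turned to -0.29 with spike-in scaling and -0.39 in unscaled counts. *Rxrg* was not detected. Of the summed TPM of the retinoid X receptors, *Rxra* took 45.3% ± 1.25 (SD, n = 3) at D0 and 57.3% ± 0.618 (SD, n = 3) at D5, and *Rxrb* took 54.7% ± 1.28 and 42.6% ± 0.619. With the length of the longest transcript in place of the exonic length, the D5 shares were 49.7% and 50.2%, so the shift toward *Rxra* held in both, but which of the pair was more abundant at D5 depended on the length used.

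Of the steroid receptors, the glucocorticoid receptor gene *Nr3c1* was among the most abundant receptors on both days. It had 69.3, 71.3 and 66.8 CPM at D0 against 142, 136 and 134 CPM at D5. With TMM factors every D5 library was far above every D0 library, and the fold was 1.99 (log2 fold change 0.99, SE 0.037, adjusted p = 5.9e-21 in edgeR's test). With spike-in scaling the log2 fold change of *Nr3c1* was 0.43 (SE 0.516) and no longer called. *Nr3c2*, the mineralocorticoid receptor gene, had 2, 8 and 4 counts at D0 and 15, 15 and 21 counts at D5. The groups did not overlap, and the ratio of the summed counts after scaling was 5.85, with a 95% counting interval from 3.19 to 11.4. *Nr3c1* held 99.8% of the summed TPM of this pair and *Pgr* at D0 and 99.4% at D5, and *Pgr*, the progesterone receptor gene, had 0 counts in every library.

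*Esr1*, which encodes estrogen receptor alpha (chr10:4611593-5005614), was among the receptors with the largest change. It had 3.26, 2.81 and 2.41 CPM in the D0 libraries and 21.8, 22.1 and 22.7 CPM in the D5 libraries. All 3 D5 libraries lay close together and far above D0, a 7.88-fold difference (log2 fold change 2.98, SE 0.087, adjusted p = 8.8e-24 in edgeR's test). In TPM its level was still modest, 0.714 ± 0.0962 at D0 and 5.04 ± 0.0996 at D5 (SD, 3 libraries each), rank 22 of the 46 receptors at D5. *Esr2*, the beta receptor gene, had at most 2 counts in any library.

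The estrogen-related receptors are orphans that drive genes of mitochondrial respiration, and they changed unequally. *Esrrg* (chr1:187608791-188214885) had 7, 13 and 6 counts at D0 and 221, 205 and 179 counts at D5. It went from barely above the detection limit to 8.10 ± 0.823 CPM (SD, n = 3), a 36.7-fold difference and the largest log2 fold change of any receptor tested, 5.20 (SE 0.20, adjusted p = 8.4e-21 in edgeR's test). *Esrra* was abundant on both days, with 33.5, 35.8 and 35.01 CPM at D0 against 43.2, 47.8 and 46.1 CPM at D5. Its log2 fold change of 0.39 (SE 0.047, adjusted p = 6.6e-09 in edgeR's test) turned to -0.16 with spike-in scaling and -0.29 in unscaled counts. *Esrrb* had 0, 0 and 2 counts at D0 and 9, 7 and 5 counts at D5 and was not tested. In the summed TPM of the 3 genes, *Esrrg* went from 0.433% ± 0.158 to 11.1% ± 1.32 and *Esrra* from 99.5% ± 0.121 to 88.5% ± 1.44 (SD, 3 libraries each).

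MEF2 factors are regulators of muscle genes that bind an A and T rich core. A MEF2 motif was found in 2 of the 63 receptor windows, those of *Esrrg* and *Nr4a2*. That share is close to the 3.19% of all windows holding it, so the motif does not set the receptors apart. The 106 bases before an annotated start of *Esrrg* are given because this gene had the largest change (chr1:187608900-187609005, plus strand, RefSeq, GRCm38.p6). They lie inside the annotated span of the gene, which begins further upstream. The motif, in capitals, reads as a match on both strands. *Esrrg* has 4 annotated starts in RefSeq, and gene counts do not show which of them was used.
Esrrg: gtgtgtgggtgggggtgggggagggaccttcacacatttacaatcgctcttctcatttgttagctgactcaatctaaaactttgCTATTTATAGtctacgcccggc

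The receptors for fatty acids, oxysterols and bile acids moved in different directions. *Pparg*, the regulator of fat cell formation (chr6:115360951-115490399), had 18.6, 20.03 and 18.2 CPM at D0 against 8.32, 8.28 and 6.95 CPM at D5. Every D5 library was below every D0 library, at 41.4% of the D0 level, and this was the largest fall of any receptor tested (log2 fold change -1.27, SE 0.075, adjusted p = 7.1e-16 in edgeR's test). *Ppard*, which drives fatty acid oxidation in muscle, fell from 47.9, 48.3 and 48.2 CPM to 36.1, 39.0 and 40.1 CPM (log2 fold change -0.33, SE 0.045, adjusted p = 1.2e-07 in edgeR's test). *Ppara* rose at a low level, from 6, 1 and 4 counts to 16, 19 and 20 counts, a scaled ratio of 8.02 with a 95% counting interval from 4.15 to 17.0. In TPM the PPAR sum fell to 0.556 of its D0 value, and its makeup shifted from 49.9% *Pparg* and 49.9% *Ppard* at D0 to 33.4% and 64.2% at D5. With the longest transcript the D0 shares were 40.8% and 59.1% and those at D5 26.0% and 72.5%, so *Pparg* lost share by either length.

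The LXRs sense oxysterols and control cholesterol export and lipid synthesis. *Nr1h2* (LXR beta) had 43.1, 40.7 and 41.1 CPM at D0 against 53.0, 48.5 and 48.4 CPM at D5 (log2 fold change 0.26, SE 0.045, adjusted p = 4.6e-06 in edgeR's test), and its sign turned with spike-in scaling and in unscaled counts, to -0.30 and -0.42. *Nr1h3* (LXR alpha) had 1, 3 and 3 counts at D0, all at or under the limit, and 27, 23 and 30 counts at D5. The scaled ratio of the sums was 18.3, with a 95% counting interval from 8.50 to 47.1, and *Nr1h2* still held 97.2% of the LXR sum in TPM at D5. *Nr1h4*, the bile acid receptor FXR, was not detected.

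Of the vitamin D and xenobiotic receptors, only *Vdr* was detected. It fell from 21.6, 19.8 and 23.0 CPM to 17.2, 16.7 and 15.9 CPM, a log2 fold change of -0.37 (SE 0.063, adjusted p = 4.1e-06 in edgeR's test). *Nr1i2* had at most 3 counts in a library. *Nr1i3* had at most 5, and 74.9% of its exonic length is shared with *Tomm40l*, a gene on the opposite strand with from 491 to 888 counts per library.

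REV-ERBs and RORs compete for the same DNA sites in the circadian clock, the first as repressors and the second as activators. *Nr1d1* (REV-ERB alpha, chr11:98767932-98775333) rose from 21.8, 20.3 and 20.9 CPM to 35.5, 34.5 and 36.2 CPM, with no overlap and a log2 fold change of 0.76 (SE 0.050, adjusted p = 1.2e-14 in edgeR's test). The call was lost with spike-in scaling (log2 fold change 0.18) and in unscaled counts (0.08). The 263 bases it shares with *Thra* are 8.55% of its exonic length, and both genes rose with TMM factors. *Nr1d2* (REV-ERB beta) rose from 49.4, 51.9 and 50.5 CPM to 74.3, 67.4 and 69.1 CPM (log2 fold change 0.47, SE 0.042, adjusted p = 1.3e-11 in edgeR's test), but was -0.10 with spike-in scaling and -0.21 in unscaled counts. *Rora* went from 16.5, 16.5 and 18.4 CPM to 27.8, 25.7 and 26.3 CPM, a log2 fold change of 0.64 (SE 0.058, adjusted p = 2.0e-11 in edgeR's test). It was 0.06 with spike-in scaling and -0.05 in unscaled counts, called in neither. *Rorb* fell at a lower level, from 3.34, 4.02 and 3.95 CPM to 2.43, 2.52 and 3.17 CPM (log2 fold change -0.48, SE 0.14, adjusted p = 2.7e-03 in edgeR's test). *Rora* thus held 79.4% ± 1.57 of the sum of this pair in TPM at D0 and 89.3% ± 1.59 at D5 (SD, 3 libraries each).

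The NR4A receptors are orphans without a known ligand pocket and are induced quickly by cAMP and calcium signals. They divided into risers and a faller. *Nr4a1* had 3.23, 3.85 and 3.82 CPM at D0 against 10.1, 12.2 and 11.1 CPM at D5, with all D5 libraries well above D0 (log2 fold change 1.60, SE 0.10, adjusted p = 2.9e-15 in edgeR's test). With spike-in scaling it was at 1.06 (SE 0.528) and no longer called. *Nr4a3* had 14, 15 and 20 counts at D0 and 42, 37 and 59 counts at D5, without overlap after scaling (log2 fold change 2.17, SE 0.25, adjusted p = 4.0e-09 in edgeR's test). *Nr4a2* had 4.30, 4.95 and 5.66 CPM at D0 against 2.83, 2.80 and 2.25 CPM at D5, so its D5 libraries were all below D0 (log2 fold change -0.92, SE 0.14, adjusted p = 4.5e-07 in edgeR's test). The sum of the 3 in TPM was 8.06 ± 1.04 at D0 and 12.8 ± 0.637 at D5 (SD, 3 libraries each). *Nr4a1* made up 44.6% ± 1.93 of it at D0 and 76.7% ± 2.02 at D5, and *Nr4a2* 52.5% ± 1.61 and 15.8% ± 2.29 (SD, 3 libraries each). *Nr4a3* went from 2.93% to 7.54%. With the longest transcript, *Nr4a1* and *Nr4a2* held 49.4% and 48.1% at D0 and 80.3% and 13.7% at D5, so the order at D0 depended on the length and that at D5 did not.

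The starts of the NR4A genes are shown because their members moved in opposite directions while their promoters share a feature. TGACG, the half-site of the cAMP response element (CGTCA on the other strand), was present in 20.8% of all windows, and 4 or more matches on both strands together were present in 0.231%. Each of the windows of *Nr4a1*, *Nr4a2* and *Nr4a3* held 4, and no other receptor window held as many. Matches are in capitals in the 250 bases before RefSeq's start of *Nr4a1* (chr15:101266596-101266845, plus strand), in those of *Nr4a2* (chr2:57124004-57124253, minus strand) and in the stretch from 250 to 153 bases before that of *Nr4a3* (chr4:48045055-48045152, plus strand), all 5′ to 3′ from RefSeq, GRCm38.p6. The *Nr4a1* start lies inside the annotated span of the gene, which begins further upstream, and gene counts do not show which start was used. The *Nr4a3* stretch ends where an exon of a longer annotated transcript begins, and holds 3 of its 4 matches. These matches are letters in the sequence, and binding was not measured.
Nr4a1: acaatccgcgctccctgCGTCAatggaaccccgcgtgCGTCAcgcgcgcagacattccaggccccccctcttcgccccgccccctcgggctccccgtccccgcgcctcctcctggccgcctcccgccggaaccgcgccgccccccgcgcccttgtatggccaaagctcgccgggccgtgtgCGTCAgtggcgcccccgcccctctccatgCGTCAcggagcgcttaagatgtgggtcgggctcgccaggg
Nr4a2: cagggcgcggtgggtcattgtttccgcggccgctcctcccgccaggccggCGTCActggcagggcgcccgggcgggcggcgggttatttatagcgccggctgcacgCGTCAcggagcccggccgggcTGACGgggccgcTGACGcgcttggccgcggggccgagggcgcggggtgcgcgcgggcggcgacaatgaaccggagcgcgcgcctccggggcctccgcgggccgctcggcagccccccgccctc
Nr4a3: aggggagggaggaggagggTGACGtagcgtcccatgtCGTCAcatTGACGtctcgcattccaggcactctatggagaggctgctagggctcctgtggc

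**Figure D2:**
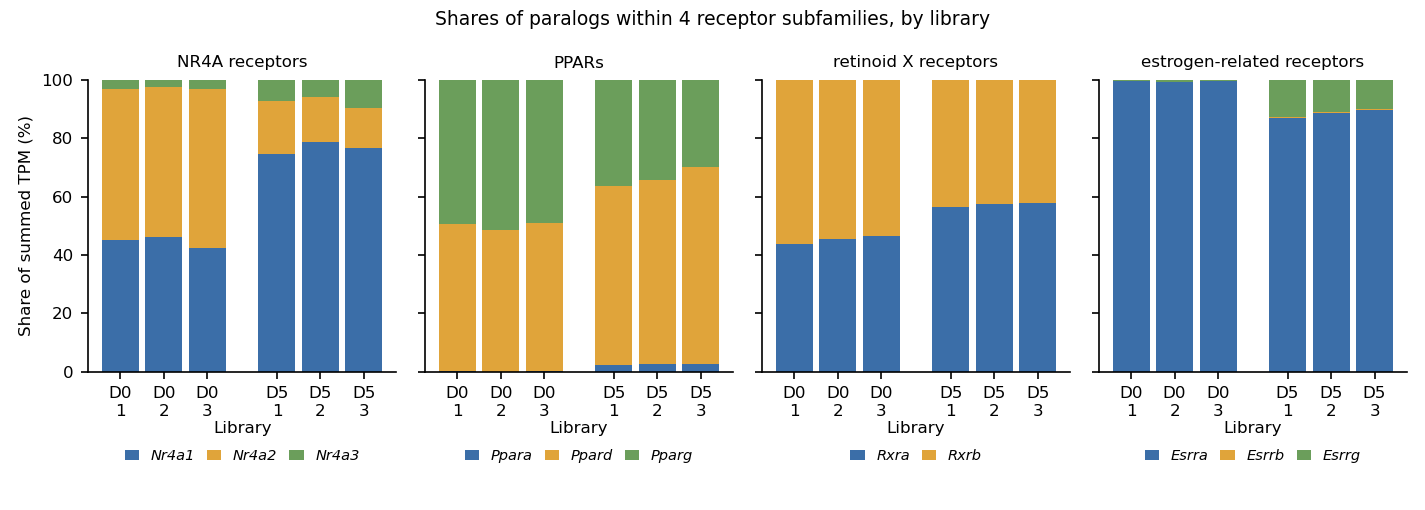
The share of each paralog in the summed TPM of its subfamily (percent, from 0 to 100), with 1 stacked bar for each of the 6 libraries and 1 panel each for the NR4A receptors, PPARs, retinoid X receptors and estrogen-related receptors. *Nr4a1* takes from 42.4% to 46.2% of its bar in the D0 libraries and from 74.6% to 78.7% in the D5 libraries, and *Pparg* from 49.0% to 51.3% and from 29.8% to 36.2%.

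The orphan receptors of the COUP-TF and testicular groups are mostly repressors of transcription. *Nr2f6*, the most abundant receptor at D0 by a margin within the spread of *Rarg*, was the receptor without a call. It had 48.2, 46.9 and 49.9 CPM at D0 against 48.4, 50.03 and 49.3 CPM at D5, and the groups overlapped (log2 fold change 0.03, SE 0.042, adjusted p = 0.55 in edgeR's test). Of its exonic length, 54.4% is shared with *Ocel1* on the opposite strand, which rose from a range of 294 to 317 counts to a range of 382 to 413 counts before scaling (log2 fold change 1.07), so the value of *Nr2f6* is uncertain. In TPM it had 56.0 ± 2.24 at D0 and 51.2 ± 0.256 at D5 (SD, 3 libraries each), so its direction depended on the scaling. *Nr2f2* (COUP-TFII), known to hold back myogenic differentiation, fell from 23.1, 21.1 and 24.96 CPM to 15.7, 20.6 and 19.2 CPM, a log2 fold change of -0.32 (SE 0.072, adjusted p = 2.1e-04 in edgeR's test). The lowest D0 library and the highest D5 library were close. *Nr2f1* rose from 7.79, 8.04 and 7.23 CPM to 9.36, 10.2 and 10.7 CPM (log2 fold change 0.39, SE 0.083, adjusted p = 8.5e-05 in edgeR's test), and turned to -0.18 with spike-in scaling and -0.29 in unscaled counts.

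*Nr2c1* fell from 26.9, 28.7 and 28.1 CPM to 20.7, 19.1 and 19.4 CPM (log2 fold change -0.50, SE 0.054, adjusted p = 1.0e-09 in edgeR's test). *Nr2c2* fell in near parallel, from 100.9 ± 0.734 CPM to 74.6 ± 2.14 CPM (SD, 3 libraries each), a log2 fold change of -0.44 (SE 0.036, adjusted p = 2.8e-12 in edgeR's test). The share of *Nr2c1* in the sum of this pair was 47.3% ± 0.991 at D0 and 46.2% ± 1.64 at D5 (SD, 3 libraries each), which differed by less than the spread. *Nr2c2* shares 30.7% of its exonic length with *Mrps25* on the opposite strand, which was higher at D5 (log2 fold change 0.61). *Nr6a1*, the germ cell nuclear factor GCNF, rose from 10.3, 10.9 and 10.9 CPM to 20.5, 20.1 and 18.8 CPM (log2 fold change 0.88, SE 0.064, adjusted p = 1.1e-13 in edgeR's test). With spike-in scaling it was at 0.33 (SE 0.520) and no longer called. Its neighbor *Nr5a1*, steroidogenic factor 1, lies 8.83 kb away on chromosome 2 and had 0, 0 and 2 counts at D0 and 4, 1 and 7 at D5, which was not called detected. *Nr2e1* and *Nr2e3* of the retina and brain, *Hnf4a* and *Hnf4g* of the liver and gut, *Nr5a2*, and the receptors without a DNA-binding domain, *Nr0b1* (DAX1) and *Nr0b2* (SHP), complete the superfamily and were at or near 0.

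In TPM, the receptor order changed at the top. At D0 *Nr2f6* (56.0 TPM), *Rarg* (55.9), *Nr1h2* (42.9), *Nr1d2* (32.4) and *Nr3c1* (31.1) led, and at D5 *Rarg* (75.3 TPM), *Nr3c1* (55.5), *Nr2f6* (51.2), *Nr1h2* (46.2) and *Rxra* (44.8). At D0 the libraries of *Nr2f6* and *Rarg* overlapped, as did those of *Nr1d2* and *Nr3c1*. At D5 every library of *Rarg* was above every library of *Nr3c1*, and *Nr3c1* above *Nr2f6*, whereas *Nr1h2* and *Rxra* overlapped. *Pparg* went from rank 12 to rank 17 and *Nr3c1* from rank 5 to rank 2. The lowest detected receptors at D5 were *Esrrb* (0.144 TPM), *Nr3c2* (0.327) and *Ppara* (0.595).

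**Figure D3:**
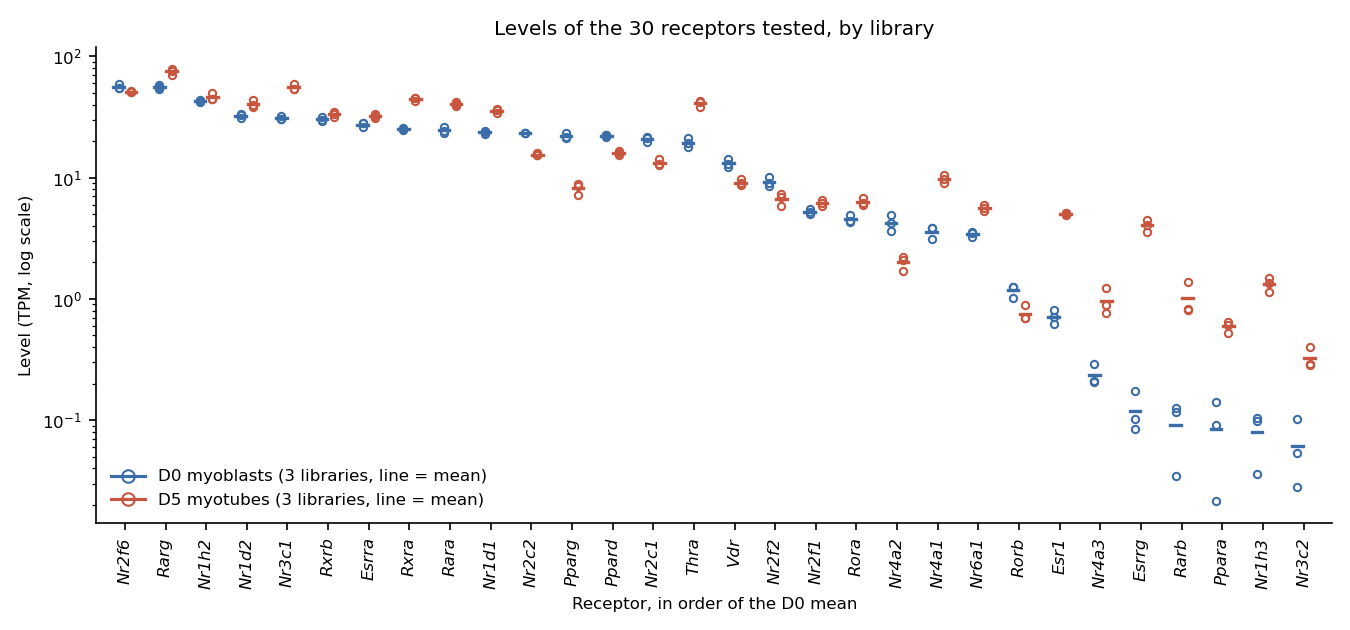
The level of each of the 30 receptors tested in TPM on a log scale, with 1 circle for each of the 3 libraries of a day and a line at the mean, in order of the D0 mean. The levels at D0 span from 56.0 TPM for *Nr2f6* to 0.0612 TPM for *Nr3c2*, and the widest gaps between the days are at the low end, from *Esr1* to *Nr3c2*.

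Summed over the 46 receptors, the level was 494, 500.3 and 515 TPM in the D0 libraries and 626, 590.0 and 612 TPM in the D5 libraries, with means of 503 ± 10.9 and 609 ± 18.0 (SD, 3 libraries each) and a ratio of 1.21. By subfamily, the thyroid hormone receptors went from 19.3 ± 1.66 to 41.0 ± 2.203 TPM, the glucocorticoid, mineralocorticoid and progesterone receptors from 31.2 ± 0.969 to 55.8 ± 2.82 TPM and the retinoic acid receptors from 80.7 ± 3.08 to 117 ± 5.82 TPM (SD, 3 libraries each). The retinoid X receptors went from 55.4 ± 0.469 to 78.1 ± 3.37 TPM and the REV-ERBs from 55.9 ± 0.708 to 76.0 ± 3.95 TPM. The PPARs went from 44.4 ± 1.32 to 24.7 ± 0.320 TPM, the testicular receptors from 44.3 ± 1.13 to 28.8 ± 0.848 TPM, and the COUP-TF receptors from 70.5 ± 2.82 to 64.0 ± 0.799 TPM. The libraries of the 2 days did not overlap in any of these 8 sums. *Nr2f6* held 79.5% of the COUP-TF sum at D0 and 80.0% at D5. Its direction depended on the scaling, so the lower COUP-TF sum in TPM carries the same limit.

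**Figure D4:**
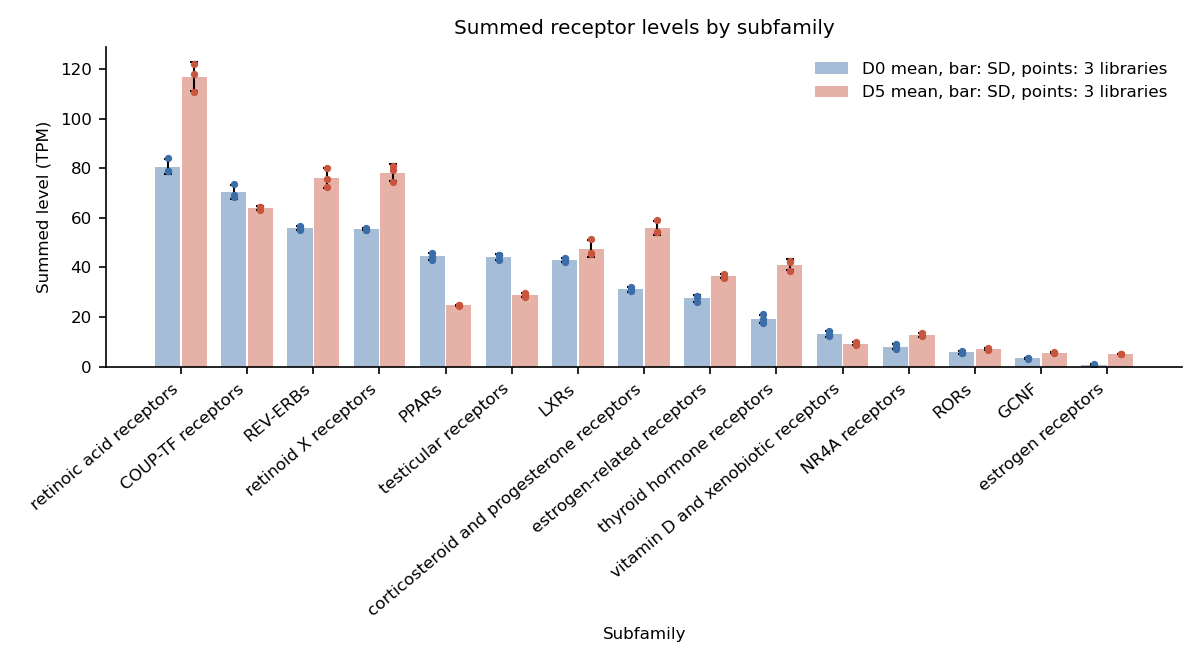
The summed TPM of the receptors of each subfamily with a mean of at least 1 TPM on a day, as bars for D0 and D5 with the SD of 3 libraries and 1 point for each library. The retinoic acid receptors lead on both days, at 80.7 and 117 TPM, and the PPARs, testicular receptors, COUP-TF receptors and the sum led by *Vdr* have the lower bar at D5. Most of the COUP-TF bars is *Nr2f6*, whose direction depended on the scaling.

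The genes that work with the receptors were taken from lists of coregulators, chaperones, ligand handling and known targets. The coactivators were mostly lower at D5, with 14 of 19 lower and 1 higher by edgeR's test, with 40.8% of all genes tested lower and 42.2% higher. Their median log2 fold change was -0.39, against 0.00 for all genes tested. With the spike-ins the median was -0.95 and 1 of the 19 was called lower, and in unscaled counts it was -1.07 and all 19 were. Of all 16290 genes tested, 3747 and 10953 were lower on these scales, with medians of -0.58 and -0.68. The list's median lay at a distance of -0.393 from that of all genes with TMM factors, -0.374 with the spike-ins and -0.391 in unscaled counts. *Med1*, the receptor-binding subunit of Mediator, fell from 183 ± 4.28 to 131 ± 1.37 CPM (SD, 3 libraries each, log2 fold change -0.48). The largest falls were those of *Ncoa5* (log2 fold change -0.75) and *Ncoa7* (-0.60), and *Trip4* was the gene that rose (0.40), though not with the spike-ins or in unscaled counts. Of the p160 coactivators, *Ncoa2* and *Ncoa3* fell (log2 fold changes -0.18 and -0.40), and *Ncoa1* had 43.4 ± 1.76 CPM at D0 against 42.6 ± 2.54 CPM at D5 (SD, 3 libraries each), which differed by less than the spread.

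Of the 12 corepressors, 9 were lower and 2 higher (median log2 fold change -0.30), with the same 40.8% and 42.2% of all genes. With the spike-ins 2 were lower and 0 higher at a median of -0.87, and in unscaled counts 11 were lower. Of all 16290 genes tested, 3747 and 10953 were lower on these scales. *Ncor1*, a corepressor of unliganded receptors, had a log2 fold change of -0.22. *Hr* (Hairless), a corepressor of thyroid hormone and vitamin D receptors, had the largest fall, from 79.95, 82.3 and 80.7 CPM to 9.20, 9.86 and 8.96 CPM (log2 fold change -3.12, SE 0.053, adjusted p = 5.2e-30 in edgeR's test). *Kdm1a* fell (log2 fold change -0.80), and *Tbl1xr1* and *Lcor* rose (0.72 and 0.34), with neither called higher with the spike-ins or in unscaled counts. Of the 12 chaperones of steroid receptors, 9 were lower and 1 higher, and with the spike-ins 3 were lower and 0 higher at a median of -0.83. *Hsp90aa1* fell from 1076 ± 19.0 to 318 ± 8.998 CPM and the p23 gene *Ptges3* from 321 ± 4.03 to 134 ± 3.58 CPM (SD, 3 libraries each), and *Bag1* rose from 110.5 ± 2.75 to 285 ± 7.57 CPM, a rise that was not called with the spike-ins.

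Genes that make, move and break down ligands had larger changes in both directions. Of all genes tested, 42.2% were higher and 40.8% lower with TMM factors. Of these 16290 genes, 1813 were higher and 3747 lower with the spike-ins, and 3353 and 10953 in unscaled counts. Of the 15 genes of retinoid handling, 12 were tested, and 8 were higher and 3 lower. With the spike-ins 6 were higher and 2 lower, and in unscaled counts 7 and 4. *Dhrs3*, which turns retinal back to retinol, rose from 28, 33 and 21 counts to 1091, 975 and 1142 counts, a 62.4-fold difference (adjusted p = 6.2e-30 in edgeR's test). *Stra6*, the retinol importer gene, fell from 306, 312 and 304 counts to 15, 19 and 13 counts (log2 fold change -3.60), and *Aldh1a3*, a retinoic acid synthase gene, fell as well (-1.32). Of the 6 genes of thyroid hormone handling, 4 were tested, and 3 were higher and 1 lower. With the spike-ins 3 were higher and 0 lower, and in unscaled counts 3 and 1. *Dio2*, which activates thyroid hormone, rose from 127, 102 and 110 counts to 1442, 1587 and 1369 counts (log2 fold change 4.38), and *Slc16a10*, a hormone transporter gene, fell (-0.32). Of the 15 genes of steroid, vitamin D and oxysterol handling, 14 were listed and 9 tested, with 4 higher and 3 lower. With the spike-ins 2 were higher and 2 lower, and in unscaled counts 3 and 6. *Hsd11b1*, which regenerates active glucocorticoid, had 3, 0 and 0 counts at D0 and 390, 375 and 382 counts at D5, a scaled ratio of 614 with a 95% counting interval from 209 to 2980. This gene passed the filter through D5 and had to differ. *H6pd*, which supplies that enzyme with its cofactor, rose with TMM factors (log2 fold change 0.25). Before scaling its counts were lower at D5, from 1462, 1624 and 1567 to 1208, 1086 and 1163, so its direction depended on the scaling. *Srd5a1* and *Cyp46a1* fell (log2 fold changes -2.16 and -0.43).

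Lists of known target genes were counted in the same way, and many of these genes have other regulators in muscle. Of all 16290 genes tested, 42.2% were higher and 40.8% lower with TMM factors. On the spike-in scale 1813 were higher and 3747 lower, and in unscaled counts 3353 and 10953. All 8 LXR targets were higher at D5 with TMM factors and in unscaled counts, and 6 of them with the spike-ins, and the median log2 fold change with TMM factors was 2.36. *Abca1*, the cholesterol exporter, went from 4, 4 and 9 counts to 1076, 885 and 927 counts (scaled ratio 273, 95% counting interval from 170 to 469), and *Abcg1* from 1, 3 and 3 counts to 237, 225 and 242 counts (161, from 77.9 to 403). *Abca1* and *Abcg1* passed the filter through D5 and had to differ, so their calls add nothing to the count of this list. Of 8 retinoic acid receptor targets, 6 were higher and 1 lower, and 6 of the 8, the faller *Stra6* among them, also stand in the list of retinoid handling. Of 13 PPAR targets, 11 were higher and 2 lower with TMM factors, 4 and 1 with the spike-ins, and 8 and 5 in unscaled counts. *Cd36*, a fatty acid transporter, had 0, 3 and 2 counts at D0 and 1171, 1146 and 1111 counts at D5. It too passed the filter through D5 and had to differ. *Ucp2* rose from 0.834 ± 0.300 to 94.8 ± 3.68 CPM (SD, 3 libraries each), whereas *Plin2* fell (log2 fold change -0.42). Of 9 ERR targets, 8 were higher and 0 lower with a median of 0.26 under TMM factors, with the spike-ins 2 were higher and 0 lower, and in unscaled counts 6 were lower and 3 higher. Among those that rose with TMM factors was *Mfn2*, a gene of mitochondrial fusion (log2 fold change 0.46).

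The targets of the glucocorticoid and thyroid hormone receptors were divided, beside 42.2% of all genes tested higher and 40.8% lower with TMM factors. Among the 16290 genes, 1813 were higher and 3747 lower with the spike-ins, and 3353 and 10953 in unscaled counts. Of the 11 glucocorticoid receptor targets tested, 6 were higher and 5 lower with TMM factors, 3 and 4 with the spike-ins, and 5 and 6 in unscaled counts. *Mt2* rose from 475, 529 and 417 counts to 3823, 3842 and 3995 counts, and *Tsc22d3* from 494, 529 and 498 counts to 2139, 2361 and 2030 counts. *Dusp1* fell from 8257, 9187 and 8709 counts to 908, 1006 and 974 counts, and *Ddit4* from 3677, 3734 and 3474 counts to 549, 562 and 641 counts. Their log2 fold changes after scaling were 3.72, 2.78, -2.50 and -1.96. Of 6 thyroid hormone receptor targets tested, 4 were higher and 2 lower, with *Atp2a1*, the calcium pump of fast fibers, at a log2 fold change of 9.13 and *Slc2a4* at 6.89, and with *Hr* and *Me1* at -3.12 and -1.05. *Slc2a4*, with 0, 4 and 3 counts at D0, passed the filter through D5 and had to differ. Of 5 REV-ERB and ROR targets, 2 were higher (*Cry1* and *Clock*, 0.75 and 0.32) and 2 lower (*Npas2* and *Nfil3*, -2.54 and -1.27), and the higher calls were lost with the spike-ins and in unscaled counts. *Arntl* had 15.3 ± 0.744 CPM at D0 against 15.8 ± 0.377 CPM at D5 (SD, 3 libraries each).

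**Figure D5:**
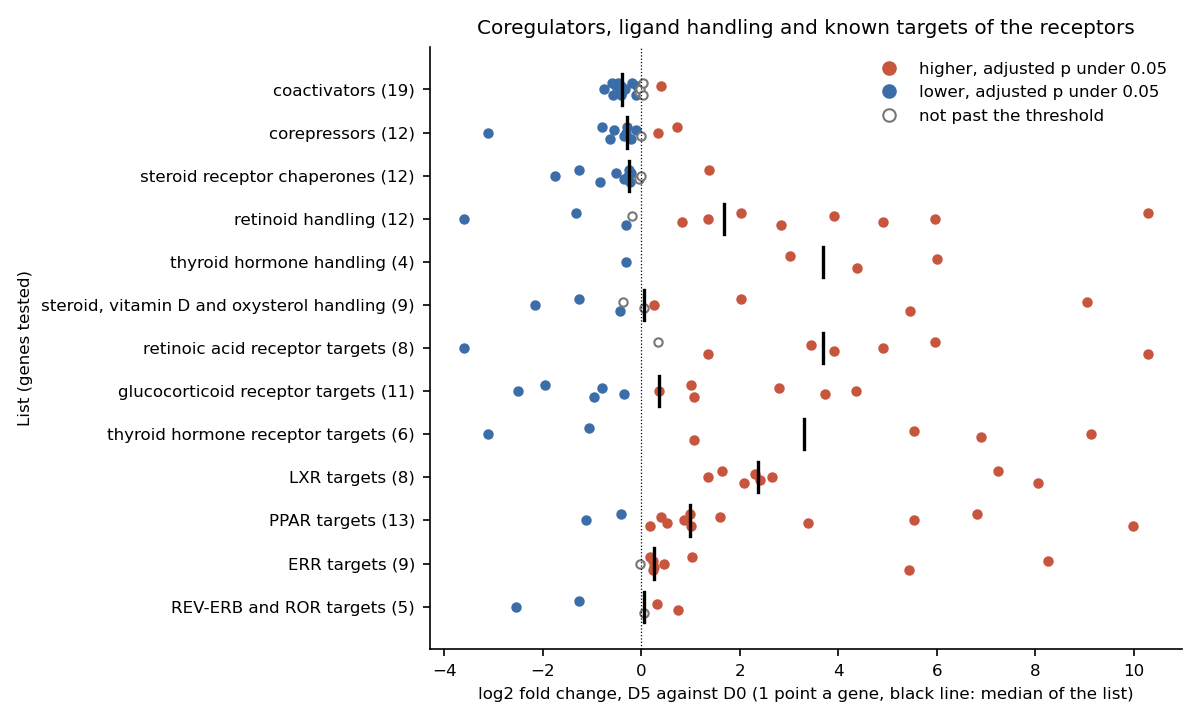
The log2 fold change, D5 against D0, of each gene tested in 13 lists of coregulators, chaperones, ligand handling and target genes, with 1 point a gene, filled where the adjusted p was under 0.05, and a black line at the median of the list. The medians run from -0.39 for the coactivators to 3.70 for thyroid hormone handling, and with the spike-ins and in unscaled counts the medians of the ERR, glucocorticoid receptor, REV-ERB and ROR target lists and of steroid, vitamin D and oxysterol handling turn negative.

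Several receptor genes lie beside each other. *Thra* and *Nr1d1* overlap by their ends on chromosome 11, 152.48 kb from *Rara*, and all 3 rose with TMM factors but none was called with the spike-ins, nor *Nr1d1* in unscaled counts. On chromosome 14, *Rarb*, *Thrb* and *Nr1d2* follow each other with gaps of 841.1 kb and 165.96 kb, and *Rarb* rose, *Thrb* was not detected, and *Nr1d2* rose with TMM factors but was lower with spike-in scaling and in unscaled counts. On chromosome 15, *Nr4a1* and *Rarg* are 960.14 kb apart.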

How the data were processed

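RNA-seq counts of 3 C2C12 cultures at D0 and 3 at D5 were used. The authors counted reads on genes of GRCm38 with featureCounts and deposited raw counts without normalization. The labels name Tophat2 and NGS-QC-Toolkit and the paper HISAT2 and FastQC; the annotation release and strand setting are not given in the sources used here. The submitters' processing notes also name DESeq2 1.6.3. Of the genes listed, 99.93% matched GENCODE vM21 by identifier, from which positions and exonic lengths were taken. The 92 ERCC rows entered neither library sizes nor tests. Totals per library were from 25449759 to 40895840 counts, and replicates differed by more than sampling noise (chi-square over its degrees of freedom between 2.16 and 3.45).

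From these counts, TMM factors, CPM, TPM and edgeR's quasi-likelihood test (edgeR 4.0.16, R 4.3.3, filterByExpr, 16290 genes, group only) were computed, with Benjamini-Hochberg adjustment over all genes tested and a threshold of 0.05. Each standard error (SE) was taken as the absolute log2 fold change over the root of F. An exact permutation test of 3 against 3 cannot go below a two-sided p of 0.1, so none was used. Ratios of low counts carry exact (Clopper-Pearson) intervals that cover counting error only, from SciPy 1.17.1. The scripts were tested on simulated data. The alternatives were DESeq2 1.42.0, upper-quartile factors, total counts, no scaling, ERCC scaling, no filter, a minimum of 10 counts in all libraries, omission of single libraries, a block for the replicate number, a detection limit of 10 counts and the longest transcript as length.

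All receptors were named. Of each related list, up to 2 genes with the largest rise and up to 2 with the largest fall were named, among called genes averaging 100 counts or more in 1 group without overlap, beside overlapping neighbors and markers. *Med1*, *Ncoa1*, *Ncoa2*, *Ncoa3*, *Ncor1* and *Arntl* were added after their values were seen. Some genes that the rule names are not reported here. The receptors and lists were chosen with earlier results of these data known.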

Additional observations from a re-analysis of the deposited data

How the results depend on the processing

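The scaling of the libraries moved the results most. With ERCC spike-in scaling, 5560 genes, 2 receptors lower (*Pparg* and *Nr4a2*) and 7 higher (*Esr1*, *Esrrg*, *Nr1h3*, *Nr3c2*, *Nr4a3*, *Ppara* and *Rarb*) passed the threshold of edgeR's test, the median of the receptors was 0.0251, and 7 receptors were higher and 7 lower in every library. Of the 7 called higher, only *Esr1* and *Nr4a3* had at least 10 counts in every library. The falls that lost their call were larger there, from -0.866 for *Nr2f2* to -1.12 for *Rorb*, with standard errors from 0.521 to 0.538. Of all calls, 67.4% were lower there, 76.6% in unscaled counts and 49.2% with TMM factors. Unscaled counts gave 14 receptors lower and 13 higher, a median of -0.0697, and 13 lower and 13 higher in every library. With spike-ins, log2 fold changes turned to -0.00597 for *Rarg*, -0.536 for *Nr2f6*, -0.101 for *Nr1d2*, -0.16 for *Esrra*, -0.286 for *Rxrb*, -0.304 for *Nr1h2* and -0.181 for *Nr2f1*, with standard errors from 0.516 to 0.521, and unscaled to -0.0943 for *Rarg*, -0.654 for *Nr2f6*, -0.21 for *Nr1d2*, -0.289 for *Esrra*, -0.045 for *Rora*, -0.389 for *Rxrb*, -0.417 for *Nr1h2* and -0.289 for *Nr2f1*. *Nr2f6* was also at -0.0256 without a filter, -0.0572 with total counts and -0.00327 without D0 replicate 2, with a highest value of 0.0434 when single libraries were left out. The median of the receptors was 0.396 with at least 10 counts in every library, where 5 low receptors are not tested, 0.763 without a filter and 0.527 with total counts. The summed level with the longest transcript was 579.9 TPM at D0 and 700.1 TPM at D5. Why the spike-ins and the gene counts give different scales was not tested.

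DESeq2, upper-quartile factors, total counts and each library left out gave 8 receptors lower and 21 higher, except that without D5 replicate 3 a receptor more was tested and 22 were higher. Leaving out each library gave medians from 0.577 to 0.648 and 13236 to 13599 genes past the threshold. Same-numbered D0 and D5 libraries deviated together with correlations of 0.033, 0.064 and 0.028, each highest with its own number but all under 0.1, so the numbers were not taken to pair the samples. With the replicate block, 13558 genes, 8 receptors lower and 21 higher passed, with a median of 0.611. Receptors under 3 counts per library are limited by depth.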
